A study of Homo sapiens with 2 samples.

Results

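The proteasome is the protease complex that degrades ubiquitin-tagged proteins, and the genes described here are those of its subunits, regulators and assembly factors. Every gene of the deposited table whose name begins PSMA to PSMG followed by a digit was taken, which gave 51 of 37364 listed genes. Of these, 48 encode subunits, regulators or assembly chaperones, and the other 3 match by name only: PSMC3IP, a cofactor of meiotic recombination, and the antisense noncoding genes PSMD6-AS2 and PSMG3-AS1. The cells were D407, an established human line labelled as adult retinal pigment epithelium (RPE), whose RNA was enriched on oligo(dT) beads and sequenced in 2 libraries. One library was labelled as clusterin-treated D407 cells, clusterin being a glycoprotein that acts as a chaperone outside the cell, and the other as control D407 cells; both were grown in DMEM with fetal bovine serum and antibiotics. The labels describe adding clusterin only for a viability assay and state neither dose nor time. With 1 library per group there was no replicate and no test between the groups, and each interval below covers counting error only.

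A core particle, the 20S proteasome, is built from stacked rings of alpha and beta subunits, and 3 of the beta subunits carry the active sites inside the chamber. A 19S cap binds ubiquitin chains, removes them, unfolds the substrate with a ring of ATPases and feeds it to the core. Interferon replaces the 3 constitutive active subunits with immunoproteasome counterparts, which favour peptides for class I antigen presentation, and thymus and testis use further variants. In long-lived, nondividing RPE cells in the eye, the proteasome takes part in clearing oxidised protein.

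Levels are given in RPKM, which divides the reads of a gene by transcript length and library total. The reads behind the levels were recovered from the deposited values, for 49 of the 51 genes, and their totals were 33177090 reads for clusterin and 38236989 for the control. Expression of the simple epithelial keratins KRT7, KRT8, KRT18 and KRT19 summed to 1003 RPKM in the clusterin library and 984 RPKM in the control library. Of 10 RPE genes checked, 6 were listed at 0 in both libraries, RPE65, RLBP1, LRAT, TTR, TYR and MERTK. MITF, a pigment cell transcription factor, stood at 9.88 RPKM with clusterin and 9.70 RPKM in the control. BEST1, a chloride channel of RPE, had 194 reads with clusterin and 277 in the control, SERPINF1, a secreted factor, 42 with clusterin and 51 in the control, and PMEL, a melanosome protein, 29 with clusterin and 49 in the control. Of the 10 genes, 4 thus had reads in cells labelled as RPE. A listed 0 may be a failed estimate and does not show absence.

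Proteasome genes differed little between the libraries, and of the 45 whose mean reached 1 RPKM none was 1.2-fold apart. The difference is the log2 of (clusterin RPKM + 1) over (control RPKM + 1), on which 5.61% of all 13244 genes at that level were at least 1.2-fold lower with clusterin and 2.26% at least 1.2-fold higher. None of the 45 was 1.5-fold or 2-fold apart either, where 0.868% and 0.219% of all genes were. RPKM is relative to the library total, so neither cell number nor total RNA per cell can be read from it. A smaller share of cells expressing a gene and less of its RNA per cell cannot be told apart in such bulk RNA. Fold changes of low genes are understated on this scale. Log2 ratios of the 45 genes ran from -0.18 for PSMA3, an alpha subunit, to 0.13 for PSMG4, an assembly chaperone. Their median was -0.08, beside -0.06 for all genes. Below 0 lay 36 of the 45, against 70.2% of all genes, and 30 lay below the median of all genes, against 50% by definition. The count below the median depended on the RPKM added, at 26 with 0.1 and 33 with 5. When the control was rescaled so that the median of all genes was 0, the median of the 45 was -0.013, and 26 of the 45 lay below 0. The 6 genes under that level were PSMB8, PSMB9, PSMA8, PSMB11 and both antisense genes.

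**Figure D1:**
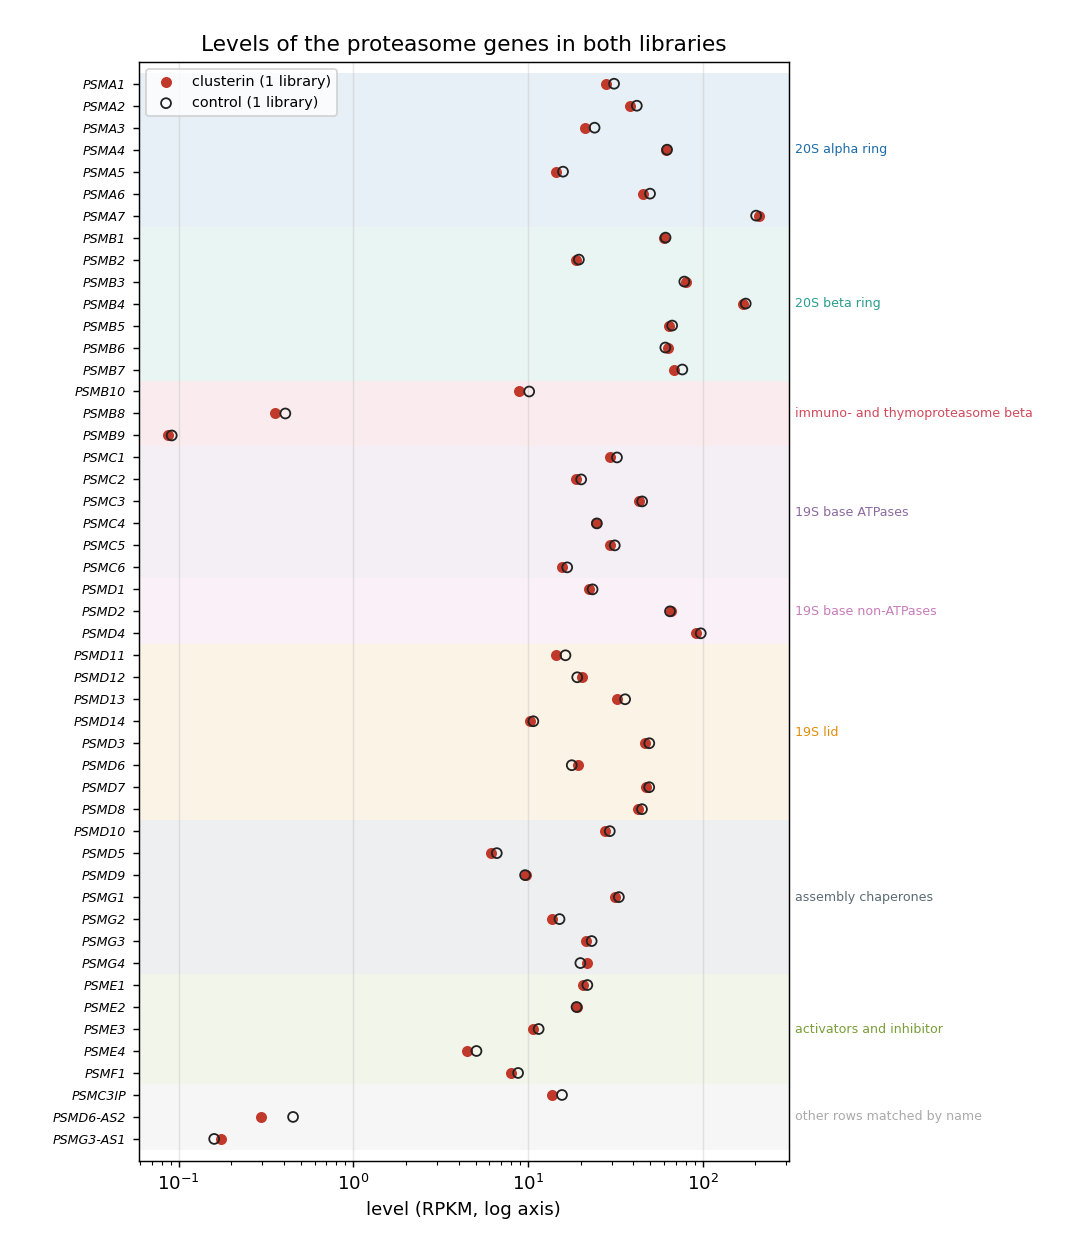
RPKM of each proteasome gene (log axis) in the clusterin library (filled points) and in the control library (open circles), grouped by role; PSMA8 and PSMB11, listed at 0, are not drawn. Both points lie close together for most genes, less so for PSMD6-AS2, while genes range from PSMB9, under 0.1 RPKM, to PSMA7, at 210.3 RPKM with clusterin and 202 in the control.

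Levels within the family spanned a wide range and ran closely together in both libraries, though some genes of like level changed order. Across the 45 genes, Pearson's r of log2 RPKM between the libraries was 0.998, a description over genes that are not independent replicates. PSMA7, an alpha subunit, had the highest level, 210.3 RPKM with clusterin and 202 RPKM in the control. Its mean was above that of 98.2% of all tested genes. PSME4, which encodes the activator PA200, was the lowest of the 45, at 4.44 RPKM with clusterin and 5.06 RPKM in the control. Summed over all 51 genes, the levels came to 1733 RPKM with clusterin and 1794 RPKM in the control.

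The alpha subunits form the outer rings of the core and the gate through which substrates enter. Of 8 alpha genes in the table, 7 were measured and 6 of these lay below 0, with a median log2 ratio of -0.12. PSMA3 stood at 21.1 RPKM with clusterin and 24.0 RPKM in the control, from 698 and 916 reads, an RPKM ratio of 0.878 (95% counting interval 0.795 to 0.970). PSMA1 stood at 28.05 RPKM with clusterin and 31.0 RPKM in the control, a ratio of 0.904 (0.851 to 0.960). For PSMA2, the levels were 38.4 RPKM with clusterin and 41.9 RPKM in the control. For PSMA5, the lowest of the ring, they were 14.5 RPKM with clusterin and 15.8 RPKM in the control, and for PSMA6 45.6 and 49.8 RPKM in the same order. These 5 genes lay close together in ratio, between 0.878 and 0.916. PSMA4 was nearly level, at 61.5 RPKM with clusterin and 62.4 RPKM in the control. PSMA7 was the one alpha gene higher with clusterin, from 7201 clusterin and 7960 control reads, a ratio of 1.04 (1.0098 to 1.08). Although each alpha subunit occurs in equal number in the particle, the mean level of PSMA7 was 13.6 times that of PSMA5. Much of this rests on the length used, 1032 bases for PSMA7 and 3864 bases for PSMA5. Their reads were 7201 and 1853 with clusterin, and 7960 and 2340 in the control. PSMA8, which replaces PSMA7 in testis, was listed at 0 in both libraries. Of 8 testis germ cell markers, 7 were also listed at 0 in both, and SYCP3, a meiotic chromosome protein, had 7 reads with clusterin and 12 in the control.

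The constitutive beta genes lay nearer to no difference, with 5 of 7 below 0 and a median log2 ratio of -0.05, which turned to 0.013 with the control rescaled. PSMB4, a structural beta subunit, had the highest level, 169 RPKM with clusterin and 176 RPKM in the control, and PSMB2, another structural one, the lowest, 18.8 RPKM with clusterin and 19.5 RPKM in the control. PSMB1 stood at 59.6 RPKM with clusterin and 61.1 RPKM in the control. PSMB3 stood at 79.9 RPKM with clusterin and 78.3 RPKM in the control. The intervals of their ratios included 1, while that of PSMB4, with a ratio of 0.960 (0.925 to 0.996), lay below 1. The 3 active subunits had like levels but ratios to either side of 1. PSMB5, the chymotrypsin-like subunit and main target of proteasome inhibitors such as bortezomib, stood at 63.8 RPKM with clusterin and 66.7 RPKM in the control, a ratio of 0.956 (0.911 to 1.003). PSMB6, the caspase-like one, stood at 63.0 RPKM with clusterin and 61.0 RPKM in the control, a ratio of 1.03 (0.970 to 1.102). PSMB7, the trypsin-like one, stood at 68.4 RPKM with clusterin and 76.3 RPKM in the control, from 2304 and 2961 reads, a ratio of 0.897 (0.849 to 0.947).

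Immunoproteasome subunits were a minor part of the active beta transcripts in both libraries. PSMB10, the counterpart of PSMB7, was the only one with a deposited level above 1 RPKM, at 8.87 RPKM with clusterin and 10.1 RPKM in the control, from 296 and 390 reads. It made up 11.5% of the summed level of PSMB10 and PSMB7 with clusterin (10.3% to 12.8%) and 11.7% in the control (10.7% to 12.9%), so the intervals overlapped. PSMB8, the counterpart of PSMB5, was listed at 0.355 RPKM with clusterin and 0.408 RPKM in the control, from 167 and 221 reads. PSMB9, the counterpart of PSMB6, was listed at 0.0870 RPKM with clusterin and 0.0912 RPKM in the control, from 24 and 29 reads. The RPKM ratios of PSMB8, 0.871 (0.708 to 1.07), PSMB9, 0.954 (0.532 to 1.70), and PSMB10, 0.875 (0.750 to 1.02), had intervals that included 1. By level, PSMB8 made up 0.554% of PSMB8 and PSMB5 with clusterin (0.471% to 0.647%) and 0.608% in the control (0.528% to 0.695%). PSMB11, the thymus counterpart of PSMB5, was listed at 0 in both libraries, as were CCL25 and LY75 of 4 thymic epithelial markers in the table. FOXN1, the transcription factor of thymic epithelium, stood at 1.29 RPKM with clusterin and 1.55 RPKM in the control, and PRSS16 had 22 reads with clusterin and 25 in the control.

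The deposited levels of PSMB8 and PSMB9 rest on lengths that exceed the genes themselves. A level and its reads give the length by which the authors' values were divided, and for the other 47 proteasome genes with reads this length, from 754 to 7099 bases, lay within the gene's span in the table. For PSMB8 it was 14174 bases although the gene spans 4219 bases (chromosome 6, 32840717 to 32844935, GRCh38), and for PSMB9 it was 8312 bases although the gene spans 5691 bases (chromosome 6, 32854161 to 32859851). Both lie in the major histocompatibility region. Of 204 genes with recovered reads between 28 and 34 Mb of chromosome 6, 126 (61.8%) had a length above their span, against 100 of 20122 genes elsewhere (0.497%). The cause was not tested, and whether the reads of these genes also come from more than this 1 copy is not known. Dividing the same reads by the span would give PSMB8 1.19 RPKM with clusterin and 1.37 RPKM in the control, and PSMB9 0.127 RPKM with clusterin and 0.133 RPKM in the control. The share of PSMB8 would then be 1.84% with clusterin and 2.01% in the control. As a share of reads, without regard to length, PSMB8 made up 5.15% with clusterin (4.41% to 5.97%) and 5.62% in the control (4.92% to 6.39%), and PSMB9 1.30% with clusterin (0.834% to 1.93%) and 1.41% in the control (0.944% to 2.01%). The ratio of a gene between the libraries does not depend on this length.

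**Figure D2:**
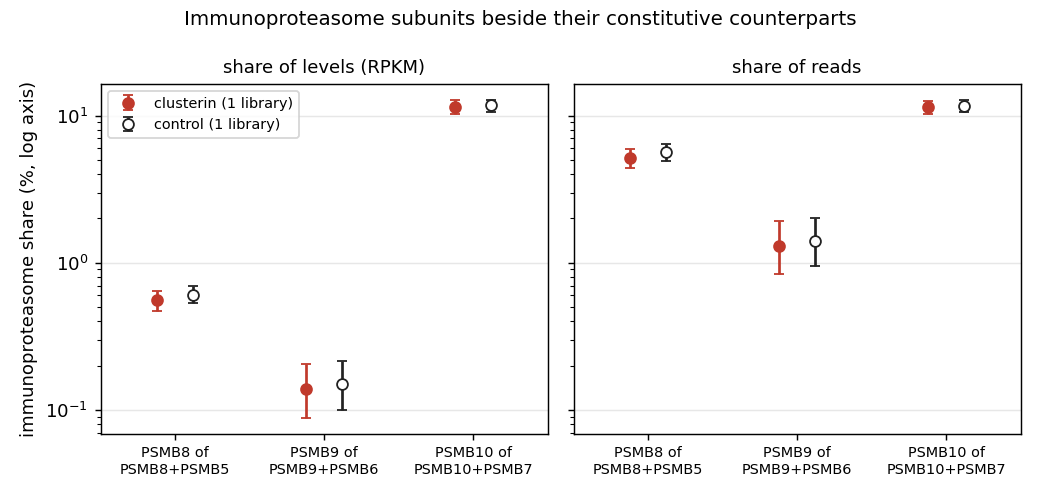
Share of each immunoproteasome subunit in the sum with its constitutive counterpart (percent, log axis), as deposited levels (left) and as reads (right), with 95% counting intervals, for the clusterin library (filled) and the control library (open). PSMB10 stays at 11.4% to 11.7% on both scales, while PSMB8 is 0.554% as a level and 5.15% as reads with clusterin, and 0.608% and 5.62% in the control.

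**Figure D3:**
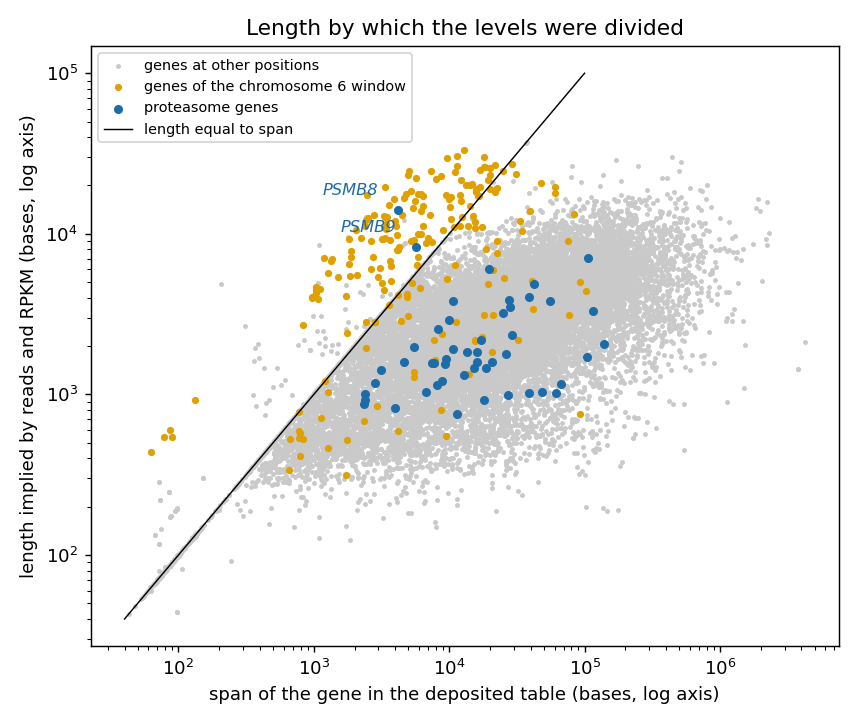
Length implied by reads and RPKM against the span of each gene in the deposited table (bases, log axes), with genes between 28 and 34 Mb of chromosome 6 and the proteasome genes picked out. PSMB8 and PSMB9 lie above the line where length equals span, among the genes of that window, and the other 47 proteasome genes lie below it.

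Promoters of 2 constitutive and 3 inducible beta genes are shown because these classes differed in deposited level. The levels of PSMB8 and PSMB9 rest on lengths above their spans, and a link between promoter and level was not tested. The stretches are the 250 bases before the RefSeq gene start on GRCh38.p14, in the direction of the gene. Such a window was found for 45 of the 51 genes, but not for PSMB6 and PSMB7, the counterparts of PSMB9 and PSMB10. PSMB4 is a structural subunit, so only PSMB5 and PSMB8 form a matched pair here. Capitals mark matches on either strand to 3 motifs, the antioxidant response core TGACNNNGC, which NFE2L1 and NFE2L2 recognise with their partners, the interferon-stimulated response core (GAAA, any 2 bases, GAAA), and the CCAAT box. PSMB5 has the CCAAT box, PSMB9 the CCAAT box and the antioxidant core, PSMB4 and PSMB10 the interferon core, and PSMB8 none of these. PSMB4 (chr1:151399323-151399572, plus strand) and PSMB5 (chr14:23035221-23035470, minus strand) are the constitutive genes shown. PSMB8 (chr6:32844680-32844929, minus strand), PSMB9 (chr6:32853942-32854191, plus strand) and PSMB10 (chr16:67936851-67937100, minus strand) are the inducible ones.
PSMB4: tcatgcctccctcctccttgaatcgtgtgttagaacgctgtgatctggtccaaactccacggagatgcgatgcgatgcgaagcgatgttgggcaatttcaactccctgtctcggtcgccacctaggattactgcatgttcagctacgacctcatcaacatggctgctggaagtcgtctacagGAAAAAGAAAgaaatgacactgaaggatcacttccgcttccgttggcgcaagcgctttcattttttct
PSMB5: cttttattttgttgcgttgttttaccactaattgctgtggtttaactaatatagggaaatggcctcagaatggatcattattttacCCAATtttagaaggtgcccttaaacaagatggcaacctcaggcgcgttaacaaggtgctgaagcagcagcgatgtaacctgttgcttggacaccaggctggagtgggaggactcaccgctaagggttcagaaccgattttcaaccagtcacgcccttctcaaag
PSMB8: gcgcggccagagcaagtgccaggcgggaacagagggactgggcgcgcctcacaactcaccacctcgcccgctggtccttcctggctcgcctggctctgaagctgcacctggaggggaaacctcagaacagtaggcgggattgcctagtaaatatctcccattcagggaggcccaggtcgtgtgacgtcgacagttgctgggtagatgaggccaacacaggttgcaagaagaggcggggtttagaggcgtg
PSMB9: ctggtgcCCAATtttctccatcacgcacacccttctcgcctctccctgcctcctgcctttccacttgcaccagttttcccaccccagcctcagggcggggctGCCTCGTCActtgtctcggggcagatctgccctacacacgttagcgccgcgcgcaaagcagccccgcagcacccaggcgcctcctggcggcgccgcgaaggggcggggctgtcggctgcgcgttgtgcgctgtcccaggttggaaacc
PSMB10: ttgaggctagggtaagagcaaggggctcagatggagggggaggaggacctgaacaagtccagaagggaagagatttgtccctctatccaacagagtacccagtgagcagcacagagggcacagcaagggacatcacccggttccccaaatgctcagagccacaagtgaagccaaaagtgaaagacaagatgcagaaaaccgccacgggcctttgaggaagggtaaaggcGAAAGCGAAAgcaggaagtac

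The interferon-stimulated core was found before 5 of the 45 genes (11.1%), PSMB10, PSMB4, PSMA4, PSME2 and PSMG4, and before 3.07% of 27305 RefSeq genes. In PSMB10 it lies 21 bases before the start, in PSMB4 68 bases before it, and the stretches of PSMB8 and PSMB9 hold none. Carrying this core did not go with 1 level: PSMB4 stood at 169 RPKM with clusterin and 176 RPKM in the control, PSMB10 at 8.87 RPKM with clusterin and 10.1 RPKM in the control. The antioxidant core was found before 11 of the 45 (24.4%), PSMB3, PSMB9, PSMD3, PSMD5, PSMD9, PSMD12, PSME1, PSME2, PSME4, PSMG1 and PSMG2, and before 11.03% of all genes. CCAAT was found before 19 of the 45 (42.2%) and 33.0% of all genes. A match is a description of these letters and not a site.

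The ATPase ring of the 19S base unfolds substrates and opens the gate of the core, and its 6 genes were the most even in level of the role groups. All 6 lay below 0, with a median log2 ratio of -0.09, and 4 lay below the median of all genes. PSMC3 had the highest level, 43.2 RPKM with clusterin and 44.9 RPKM in the control, and PSMC6 the lowest, 15.7 RPKM with clusterin and 16.7 RPKM in the control, so that the highest mean was 2.72 times the lowest. PSMC1 had the lowest ratio, 0.918 (0.858 to 0.982), at 29.6 RPKM with clusterin and 32.2 RPKM in the control. PSMC4 had the highest, 0.988 (0.923 to 1.06), at 24.5 RPKM with clusterin and 24.7 RPKM in the control. PSMC2 stood at 18.8 RPKM with clusterin and 20.1 RPKM in the control, and PSMC5 at 29.4 RPKM with clusterin and 31.3 RPKM in the control.

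Among the other base subunits, PSMD4, a receptor for ubiquitin chains, stood at 91.8 RPKM with clusterin and 97.3 RPKM in the control, a ratio of 0.944 (0.906 to 0.984). The scaffold subunit PSMD2 was level, at 65.5 RPKM with clusterin and 64.8 RPKM in the control, from 6346 and 7245 reads. PSMD1, the other large scaffold, stood at 22.4 RPKM with clusterin and 23.4 RPKM in the control.

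The lid, which holds the deubiquitinase that frees ubiquitin from substrates, spread most widely in ratio among the 19S groups. Its 8 genes had a median log2 ratio of -0.07, with 6 below 0. PSMD11 stood at 14.4 RPKM with clusterin and 16.4 RPKM in the control, from 1913 and 2513 reads, a ratio of 0.877 (0.826 to 0.931). PSMD13 stood at 32.1 RPKM with clusterin and 35.9 RPKM in the control, a ratio of 0.893 (0.842 to 0.948). On the other side, PSMD6 stood at 19.2 RPKM with clusterin and 17.8 RPKM in the control, a ratio of 1.08 (0.996 to 1.17). PSMD12 stood at 20.3 RPKM with clusterin and 19.1 RPKM in the control, a ratio of 1.06 (0.981 to 1.15). The lid thus held genes on both sides of 1, and for the pair above it the intervals included 1. PSMD14, the deubiquitinase itself, had the lowest level of the 19S cap, 10.2 RPKM with clusterin and 10.7 RPKM in the control. PSMD3, PSMD7 and PSMD8 lay between 42.5 and 47.1 RPKM with clusterin and between 44.8 and 49.4 RPKM in the control.

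**Figure D4:**
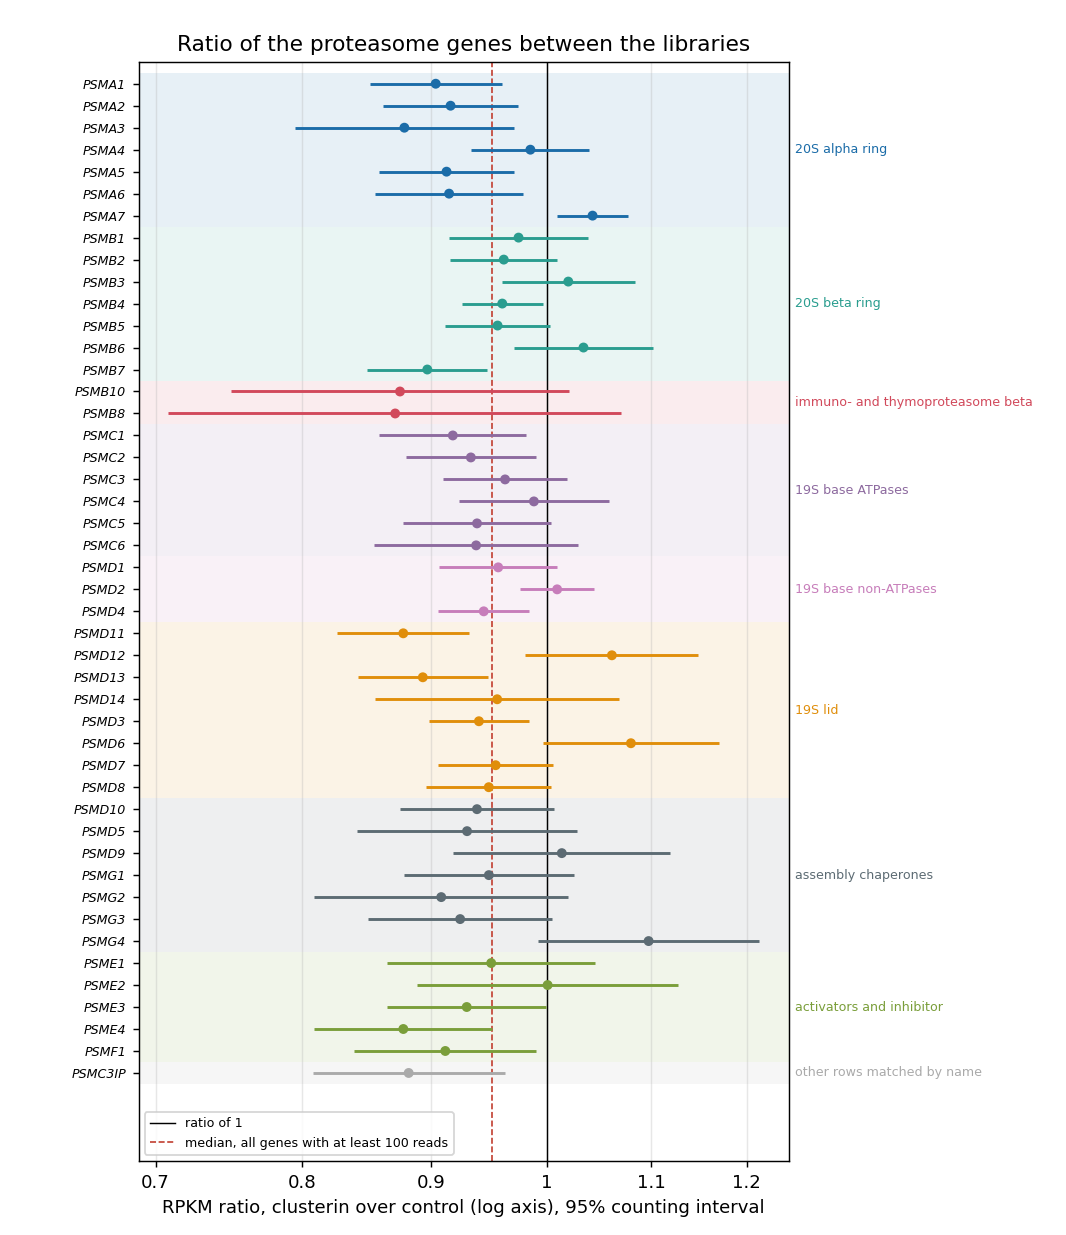
RPKM ratio of clusterin over control (log axis) for proteasome genes with at least 100 reads over both libraries, with 95% counting intervals, by role. The solid line marks a ratio of 1 and the dashed line the median of all genes with that many reads, 0.952; PSMD11, PSMD13, PSMB7 and PSME4 lie wholly below the dashed line, and PSMA7 lies wholly above both lines.

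Assembly chaperones build the core and the base and are not part of the finished particle. Of the 4 core chaperones, PSMG1 stood at 31.4 RPKM with clusterin and 33.1 RPKM in the control. PSMG2, its partner in a dimer, stood at 13.7 RPKM with clusterin and 15.1 RPKM in the control, a ratio of 0.908 (0.809 to 1.02). PSMG3 stood at 21.3 RPKM with clusterin and 23.1 RPKM in the control, a ratio of 0.924 (0.849 to 1.005). Its dimer partner PSMG4 went the other way, at 21.8 RPKM with clusterin and 19.9 RPKM in the control, a ratio of 1.097 (0.992 to 1.21), and its log2 ratio was above that of 92.3% of all tested genes. The interval of each of these ratios included 1. PSMG4 was also the only gene of the family whose listed position was not within 10 kb of RefSeq at both ends. Of the 3 base chaperones, 2 lay below 0. PSMD10 (gankyrin) stood at 27.5 RPKM with clusterin and 29.3 RPKM in the control, PSMD9 at 9.74 RPKM with clusterin and 9.61 RPKM in the control, and PSMD5 at 6.15 RPKM with clusterin and 6.62 RPKM in the control.

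Activators open the core without the 19S cap. PSME1 and PSME2, which form the interferon-inducible 11S activator, stood close to each other in level. PSME1 was at 20.7 RPKM with clusterin and 21.8 RPKM in the control, and PSME2 at 18.9 RPKM in both libraries. Their genes lie 4397 bases apart on chromosome 14 (PSME1 24136158 to 24138967, PSME2 24143365 to 24147316, GRCh38). By deposited level, this inducible pair lay within the range of constitutive cap subunits. The deposited levels of PSMB8 and PSMB9 were lower, but they rest on lengths above the spans of these genes. PSMB10, the other inducible beta gene above 0, stood at 8.87 RPKM with clusterin and 10.1 RPKM in the control. PSME3, the nuclear activator, stood at 10.7 RPKM with clusterin and 11.5 RPKM in the control, a ratio of 0.930 (0.865 to 0.9994). PSME4 had a ratio of 0.877 (0.809 to 0.952), from 1046 and 1374 reads. PSMF1, named as an inhibitor of the core, stood at 7.99 RPKM with clusterin and 8.76 RPKM in the control, a ratio of 0.912 (0.839 to 0.991).

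Set against counting error, the family was close to the rest of the genes. The ratio interval lay wholly below 1 for 17 of the 45 genes (37.8%), against 26.6% of 12093 tested genes with at least 100 reads, and wholly above 1 for PSMA7 alone, against 4.33%. Measured from the median ratio of genes with that many reads, 0.952, the interval lay wholly below for 4 genes, PSMB7, PSMD11, PSMD13 and PSME4 (8.89%, against 9.87% of all), and wholly above for 7, PSMA7, PSMB3, PSMB6, PSMD2, PSMD6, PSMD12 and PSMG4 (15.6%, against 12.6%). The last pair of shares is near that of all genes, while the share wholly below 1 was above it. Whether an interval excludes 1 also depends on the reads of a gene. The median level in the control was 24.7 RPKM for the 45 genes, against 5.93 RPKM for all 13244 tested genes. The part of this difference in the shares was not tested.

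The authors' deposited table gave 8 of the 49 genes above 0 a q under 0.05, all lower with clusterin, or 16.3%, where 10.4% of 20642 genes were called lower and 1.63% higher. These q-values compare 1 library with 1 library. They also depend on the reads of a gene, and the genes above 0 include those with few reads, so the shares are not matched for depth. The q of the authors' deposited table was 0.000544 for PSMD11, 0.00214 for PSMB7, 0.00372 for PSMD13 and 0.0128 for PSMA1. It was 0.0179 for PSME4, 0.0327 for PSMA5, 0.0398 for PSMC3IP and 0.0421 for PSMA2 in the authors' deposited table. PSMA7, the highest gene, had a q of 0.0717 in the authors' deposited table, on the higher side. None of the 8 was 1.2-fold apart.

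Genes that act beside the family behaved alike in size. Of 10 other proteasome-bound genes, 8 lay below 0, with a median log2 ratio of -0.08 and none 1.2-fold apart on the scale with 1 RPKM added. SHFM1, the small lid subunit also called DSS1, was the highest, at 109 RPKM in the clusterin library and 109.9 RPKM in the control. ADRM1, the ubiquitin receptor of the base, stood at 48.1 RPKM with clusterin and 44.5 RPKM in the control, a ratio of 1.08 (1.02 to 1.15). TXNL1, a thioredoxin bound to the cap, stood at 14.2 RPKM with clusterin and 12.8 RPKM in the control, and PAAF1, a base assembly factor, at 3.11 RPKM with clusterin and 3.79 RPKM in the control, an RPKM ratio of 0.819 (0.672 to 0.997). Ubiquitin genes and E1 enzymes had 5 of 6 below 0 and a median of -0.09, led by UBB, at 321 RPKM with clusterin and 335 RPKM in the control. UBA6, an E1 enzyme, stood at 4.71 RPKM with clusterin and 4.39 RPKM in the control. Of the ubiquitin shuttles, which carry tagged proteins to the cap, RAD23B stood at 36.7 RPKM with clusterin and 36.9 RPKM in the control, and UBQLN4 at 12.2 RPKM with clusterin and 12.1 RPKM in the control. DDI1, of the same list, was listed at 0.

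NFE2L1, the transcription factor that raises proteasome genes when the proteasome is impaired, stood at 34.1 RPKM with clusterin and 36.9 RPKM in the control, a ratio of 0.923 (0.890 to 0.956). DDI2, the protease that cleaves NFE2L1 into its active form, stood at 3.31 RPKM with clusterin and 4.12 RPKM in the control, from 294 and 422 reads, a ratio of 0.803 (0.689 to 0.934). VCP, the segregase that extracts ubiquitin-tagged proteins from membranes, was the highest of these 10 genes, at 56.5 RPKM with clusterin and 59.5 RPKM in the control. SYVN1, a ubiquitin ligase of the endoplasmic reticulum, was the highest in ratio, at 2.54 RPKM with clusterin and 2.25 RPKM in the control. The list had 8 of 10 below 0 and a median of -0.06, beside -0.06 over all genes.

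Class I antigen presentation genes, which use the peptides of the immunoproteasome, had 5 of 12 above a mean of 1 RPKM, with a median log2 ratio of -0.05, which turned to 0.017 after quantile normalization. B2M, the light chain of class I molecules, stood at 476 RPKM with clusterin and 479 RPKM in the control. IRF1, an interferon-induced transcription factor, stood at 1.79 RPKM with clusterin and 1.77 RPKM in the control, and NLRC5, the transactivator of class I genes, at 1.47 RPKM with clusterin and 1.79 RPKM in the control. TAP1, a peptide transporter, lies between PSMB8 and PSMB9, 273 bases from the one and 189 bases from the other. It had 150 reads with clusterin and 211 in the control, a ratio of 0.819 (0.660 to 1.015). HLA-C, a class I heavy chain in the same window, went the other way, at 0.465 RPKM with clusterin and 0.355 RPKM in the control, from 166 and 146 reads, a ratio of 1.31 (1.04 to 1.65). The length of TAP1, 23073 bases, was also above its span of 8763 bases, as for all 6 genes of this list with recovered reads in that window. Among 10 leukocyte markers, which come from cells rich in immunoproteasome, PTPRC, CD3E, ITGAM and LCP1 were listed at 0 in both libraries. By deposited level, the whole list summed to 7.03 RPKM with clusterin and 7.06 RPKM in the control. Most of it was CD68, at 5.93 RPKM with clusterin and 6.17 RPKM in the control. AIF1, a leukocyte marker in the same chromosome 6 window, had 125 reads with clusterin and 153 in the control. Its length of 9312 bases was above its span of 1830 bases, which lowers its part in the sum.

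The 3 genes matched by name only were not part of the complex. PSMC3IP stood at 13.8 RPKM with clusterin and 15.6 RPKM in the control, a ratio of 0.882 (0.808 to 0.962). PSMD6-AS2 had 25 reads with clusterin and 44 in the control, an RPKM ratio of 0.655 (0.384 to 1.09), and PSMG3-AS1 had 35 with clusterin and 37 in the control. Both antisense genes overlap their partner, PSMD6 over 1695 bases and PSMG3 over 421 bases, and the use of strand in counting was not given in the sources used here, so reads of the partners cannot be told apart. The table lists both antisense genes again under Ensembl identifiers, with 24 reads for PSMD6-AS2 with clusterin and 43 in the control, and 36 for PSMG3-AS1 with clusterin and 39 in the control. Several proteasome subunit genes have processed pseudogenes, and reads that near-identical copies share cannot be assigned between them.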

How the data were processed

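RNA-seq of 2 D407 libraries, 1 clusterin and 1 control as labelled, was read from 1 deposited table. The submitters' processing notes name Bowtie, TopHat, Cuffdiff and hg19, with no version. Listed positions of 50 of 51 members, all but PSMG4, lay within 10 kb of RefSeq GRCh38.p14 at both ends. The authors deposited an RPKM level per gene and library, a log2 fold change, and a p-value and q-value; the header names no level unit. The unit follows from the levels themselves: for 480 of 522 small RNA genes both levels times length were whole reads within 0.02 at 1 total per library (33177090 clusterin, 38236989 control), and 466 deposited p-values matched an Audic-Claverie p within 0.1%. Reads of other genes were found by searching the length at which both levels were whole and the p matched (20326 of 20642 genes above 0, 98.5%); they cannot be told from read pairs. In simulated libraries 94.85% of 2000 genes were recovered and 100% of those were right. These genes were drawn from recovered ones with at least 100 reads over both libraries, and simulated with the same formulas as the search. The simulation thus does not cover genes with fewer reads, such as PSMB9 and both antisense genes, or values made in another way. Intervals are exact Clopper-Pearson at 95%; reads carry no molecular identifiers, so counting error alone is covered. Levels below a mean of 1 RPKM were left out of log2 ratios, which used a pseudocount of 1 RPKM. The members, lists and rules were chosen with earlier results of these data known. All members may be named; of each companion list the text gives the 2 highest in level and the extremes in ratio, some of which are not reported here, and TAP1, HLA-C and the RPE markers' values were added after they were seen. Of 5 thymic markers 4 were found by name. Python 3.11.15, numpy 2.4.6, pandas 2.3.3, scipy 1.17.1 and matplotlib 3.10.9 were used.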

Additional observations from a re-analysis of the deposited data

How the results depend on the processing

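No replicate exists to leave out, and no difference here has a spread between replicates. No paired analysis was possible because each group has 1 library. The count of 0 members past 1.2-fold held with pseudocounts of 0.1 and 5, after quantile normalization and after rescaling the control. Counts of 0 at higher folds or levels follow from it, and without a filter the count is 0 only with 1 RPKM added: the RPKM ratio of PSMD6-AS2 was 0.655. Of 93 log2 medians recomputed, 84 moved by less than the counting error of a typical gene in the list (less than 0.05 for the median of all genes); 1 of these, the class I median with the control rescaled, crossed 0 to 3.7e-05. With the control rescaled, medians turned to 0.013 for the constitutive beta genes, 0.0059 for the base non-ATPases and 0.053 for the ubiquitin shuttles, and moved to -0.017 for the ubiquitin genes. After quantile normalization they were 0.0016 for the base non-ATPases, 0.037 for the shuttles and 0.017 for the class I genes, and 33 of the 45 members lay below 0. At a mean of at least 20 RPKM, 23 of 28 members lay below 0. As a share of reads, PSMB8 was 5.15% with clusterin and 5.62% in the control, and PSMB9 1.30% and 1.41%. With the length limited to the span, an alternative chosen after seeing the data, PSMB8 was 1.84% and 2.01%, and PSMB9 0.201% and 0.218%. At a q of 0.01 the authors' deposited table called 3 members lower, and at 0.05 with at least a 1.2-fold difference 0. Depth limits PSMB9 and both antisense genes, with 24 to 44 reads per library.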
